A study of Mus musculus with 6 samples.

Results

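Cirbp and Rbm3, which encode the cold-inducible RNA-binding proteins, were examined in neurons of the mouse preoptic area of the hypothalamus (POA) together with 3 temperature-sensing kinases of splicing factors (Clk1, Clk2 and Clk4) and 5 SR splicing factors (Srsf2, Srsf5, Srsf6, Srsf7 and Srsf10). The genes were chosen by symbol, for what is known of them in other cells. All 10 were found among the 9583 genes of the deposited table. The libraries came from naïve wild-type C57Bl/6J mice aged 6 to 14 weeks. POA neurons were dissociated, kept at 34°C, imaged with the calcium indicator Fura 2 during cooling of the bath from room temperature to about 10°C, and then aspirated. Cold-sensitive pools hold neurons from the strongest 7% of responses to cooling and cold-insensitive pools neurons from the weakest 14%, with 3 pools of each type and about 100 to 200 neurons in a pool. By the study's methods each pool combines several isolations, male and female mice were used, and the same coverslips gave both types, so both had been cooled. No pool was kept from cooling, and the comparison is therefore between types of neuron, not between temperatures.

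CIRBP and RBM3 are small proteins with an RNA recognition motif and a glycine-rich tail. In mammalian cells their levels rise on mild cooling, and they bind messenger RNAs and affect their stability, polyadenylation and translation. CLK kinases phosphorylate the arginine- and serine-rich tails of SR proteins, and their activity rises as temperature falls within the range of body temperature, which changes alternative splicing. SR proteins bind exons and recruit the splicing machinery, and many genes of this kind limit their own output through exons or introns whose inclusion marks the RNA for decay or holds it in the nucleus.

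The libraries held 3316441 to 6818554 counts in cold-sensitive and 5276233 to 5712983 counts in cold-insensitive pools. The study's methods report RNA integrity that ranged widely over the samples. They do not assign it to single libraries, and its part in the values below was not tested. Reads from mitochondrial genes made up 1.94% to 4.59% of counts in cold-sensitive and 1.67% to 4.22% in cold-insensitive pools. All 10 general markers of neurons were in the table, and 0 of them passed the test between the types, beside 1.17% of all genes. Some alternatives called 2 of them (the replicate number as a block, the newer edgeR fit). Others called 1 (DESeq2, the likelihood ratio test, upper quartile scaling, library size alone, at least 10 counts in every library, and cold-insensitive replicate 1 left out). Levels are given in RPM, the deposited normalized reads, scaled by the authors to the effective library size. Oligodendrocytes were represented by 2 of 8 markers, of which 1, not reported here, passed edgeR's test as higher in cold-sensitive pools. With DESeq2 0 of the 2 passed, and 2 did with the replicate number as a block. Mbp, a myelin gene and the other of these markers, had 416, 143 and 73.6 RPM in cold-sensitive replicates 1 to 3, against 193, 48.4 and 16.1 RPM in cold-insensitive replicates 1 to 3. It was highest in replicate 1 of both types, and the types overlapped (log2 fold change 1.29; edgeR gave an adjusted p of 0.382 and of 0.00218 with the replicate number as a block). Leaving out 1 library moved this log2 fold change widely, to 0.31 without cold-sensitive replicate 1 (adjusted p = 0.904 from edgeR) and to 2.70 without cold-insensitive replicate 1 (adjusted p = 0.0346). Oligodendrocyte precursor cells were represented by 3 of 8 markers. Their summed level was 22.7 to 62.8 RPM in cold-sensitive and 445 to 536 RPM in cold-insensitive pools. Pdgfra and Vcan fell (log2 fold changes -4.85 and -3.11, edgeR adjusted p = 1.55e-09 and 0.00127). The other marker, C1ql1, lay the opposite way and did not pass (edgeR, adjusted p = 0.750). Its means were 10.0 RPM in cold-sensitive against 5.15 RPM in cold-insensitive neurons, or 0.95 as a log2 fold change. Astrocytes were represented by Slc1a2 and Aldoc, 2 of 8 markers (116.7 to 148 RPM summed in cold-sensitive and 109 to 336 RPM in cold-insensitive pools), and microglia and endothelium by 0 of 8 markers each. The lowest value in the table is 1.01 RPM, so genes near 0 in some library cannot be followed here. The part of such cells in the values below was not tested, and in pooled cells fewer cells of a type and less RNA per cell cannot be told apart.

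None of the 10 genes differed between the types past the test, and as a set they stood at nearly equal levels. With edgeR's quasi-likelihood F-test across all 9583 genes, at an adjusted p of at most 0.05 after Benjamini-Hochberg adjustment, 0 of the 10 were higher and 0 lower in cold-sensitive neurons. Of all genes tested, 0.334% were called higher and 0.835% lower, or 1.17% in either direction, so 0 of 10 is close to the background. At an unadjusted p under 0.05 edgeR again gave 0 of the 10, against 10.7% of all genes, and DESeq2 and limma gave 0 at either threshold. The median log2 fold change of the 10 genes was 0.04, beside 0.00 over all genes, with 6 above and 4 below zero. Each of the 10 lay within a 2-fold change, as did 88.8% of all genes. The genes summed to 1279, 1321 and 1538 RPM in cold-sensitive replicates 1 to 3, against 1431, 1215 and 1302 RPM in cold-insensitive replicates 1 to 3 (two-sided exact permutation test, p = 0.6).

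**Figure D1:**
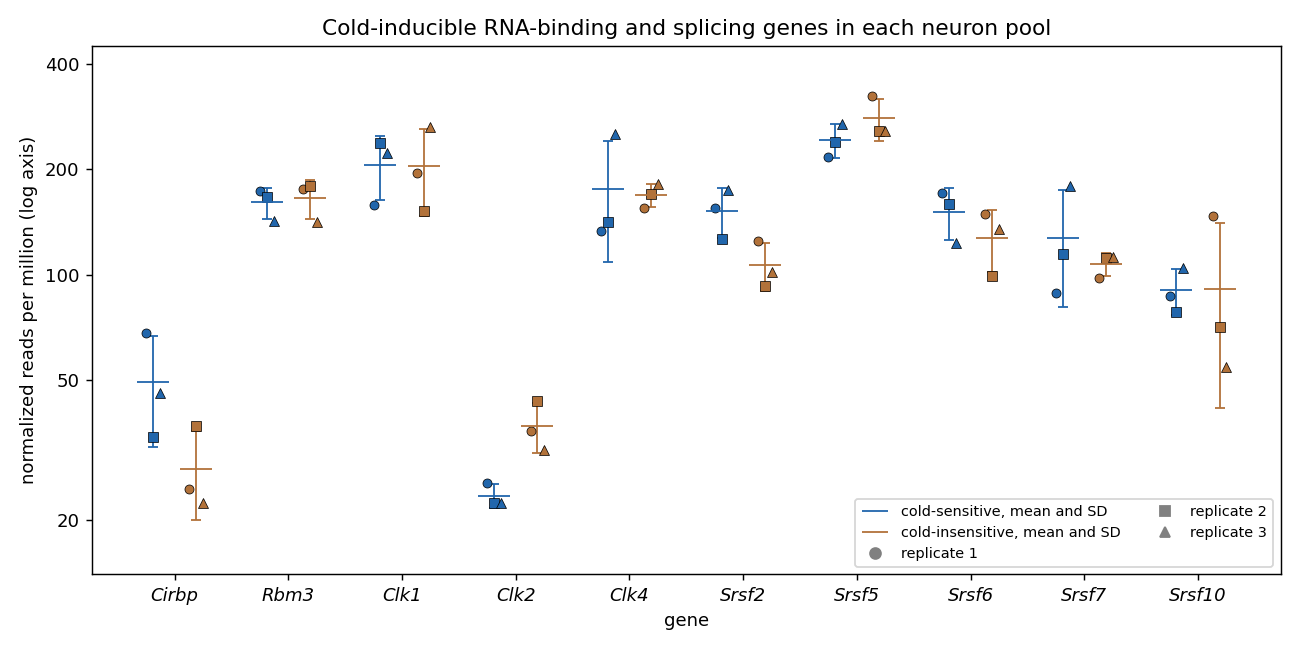
Normalized reads (RPM, log axis) of each of the 10 genes in the 3 cold-sensitive pools (blue, left of each pair) and the 3 cold-insensitive pools (brown, right of each pair), with the mean and SD per type and a marker shape per replicate. Srsf2 and Clk2 are the genes whose types do not overlap, whereas Rbm3 has nearly the same values in both.

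Cirbp had the largest difference among the 10 genes, and it did not pass the test. Its level was 68.4, 34.4 and 46.0 RPM in cold-sensitive replicates 1 to 3 (counts of 238, 112 and 309), against 24.5, 37.0 and 22.3 RPM in cold-insensitive replicates 1 to 3 (counts of 145, 217 and 114). The types overlapped, since cold-sensitive replicate 2 lay below cold-insensitive replicate 2. The means were 49.6 ± 17.3 RPM in cold-sensitive and 27.9 ± 7.91 RPM in cold-insensitive neurons (SD, n = 3 pools of each type), a log2 fold change of 0.83 (standard error 0.47, 95% interval -0.15 to 1.80, adjusted p = 0.583 from edgeR). The interval thus runs from a 0.903-fold to a 3.49-fold level in cold-sensitive neurons, and these pools do not settle between no difference and a large increase. The difference was uneven over the replicates, with log2 ratios of 1.48, -0.10 and 1.04 within replicates 1 to 3. Cold-sensitive replicate 1, in which Cirbp was highest, also had the highest Mbp of the cold-sensitive pools. In cold-insensitive replicate 1, where Mbp was the highest of the cold-insensitive pools, Cirbp stood at 24.5 RPM. Its log2 fold change came to 0.52 with cold-sensitive replicate 1 left out, and without cold-insensitive replicate 2 it was 1.08.

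The promoter of Cirbp is known for a short element of Sp1 binding, TCCCCGCC, that was described as mediating induction by mild cooling. It is shown here because this element is a known DNA link between temperature and a gene of the set. Of the 10 genes, 8 matched RefSeq promoter windows of GRCm38.p6 (250 bases before to 50 after a start site, 9 windows, as Cirbp has 2 starts). Rbm3 and Clk1 had no window, so their promoters were not searched. Among the 9 windows, 2, of Cirbp and Srsf7, held the element when both strands were searched. It occurred in 5.38% of all 32851 windows and in 10.2% of the 9844 windows of genes in the table. The 250 bases before these starts follow, with the element in capitals, for Cirbp on the forward strand of chr10:80167589-80167838 and for Srsf7 on the reverse strand of chr17:80207306-80207555, each 5′ to 3′ along its gene.
Cirbp: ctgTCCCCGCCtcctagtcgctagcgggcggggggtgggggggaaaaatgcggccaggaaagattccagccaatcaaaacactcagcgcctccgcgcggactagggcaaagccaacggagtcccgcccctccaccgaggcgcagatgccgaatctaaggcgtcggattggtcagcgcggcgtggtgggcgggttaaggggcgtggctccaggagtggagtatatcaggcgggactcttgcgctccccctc
Srsf7: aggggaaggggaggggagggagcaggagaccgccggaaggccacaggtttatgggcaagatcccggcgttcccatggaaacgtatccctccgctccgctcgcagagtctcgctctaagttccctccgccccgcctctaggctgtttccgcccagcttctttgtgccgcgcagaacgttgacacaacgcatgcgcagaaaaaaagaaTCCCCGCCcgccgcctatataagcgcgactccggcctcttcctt
The element begins at position -247 from the start site in Cirbp and at -44 in Srsf7. A match of letters is not a bound site. Srsf7 had a log2 fold change of 0.25, beside 0.83 for Cirbp. Of the other genes with windows, Clk4 held the palindromic cyclic AMP response element TGACGTCA (position -65 from its start, searched on both strands), which occurred in 1.79% of all windows and in 3.24% of those of genes in the table.

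The means of Rbm3 differed by less than the spread of the pools. It had 174, 167 and 143 RPM in cold-sensitive replicates 1 to 3, against 176, 179 and 141 RPM in cold-insensitive replicates 1 to 3. Replicate 3 was the lowest pool of each type. The log2 ratios within replicates were -0.02, -0.10 and 0.01, the narrowest range of the 10 genes. The log2 fold change was -0.04 (standard error 0.25, 95% interval -0.56 to 0.47, adjusted p = 0.975 from edgeR), so a level in cold-sensitive neurons below 0.680-fold or above 1.39-fold lies outside the interval. The spread of its log2 values within a type was 0.17 (SD), smaller than in all but 4.69% of genes in the table, which include many of lower level and so of larger counting error.

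The ratio of Cirbp to Rbm3 counts within a library needs no scaling between libraries. It was 0.394, 0.206 and 0.323 in cold-sensitive replicates 1 to 3, against 0.139, 0.207 and 0.158 in cold-insensitive replicates 1 to 3. The types overlapped by a narrow margin at replicate 2 of each, with p = 0.2 by an exact two-sided permutation test, where 0.1 is the smallest p that 3 pools against 3 allow. This ratio was chosen after the values had been seen.

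By the root mean square difference of centred log2(RPM + 1) values over the 6 libraries, Ano6, Mettl14 and Ino80e had the profiles nearest to that of Cirbp (0.13, 0.14 and 0.16, beside a median of 0.70 over all other genes). Ano6 encodes a calcium-activated lipid scramblase, Mettl14 a subunit of the RNA adenosine methyltransferase and Ino80e a subunit of a chromatin remodeller. Nearest to Rbm3 were Scd2, a fatty acid desaturase, Ptprs, a receptor tyrosine phosphatase, and Camkk1, a calmodulin-dependent kinase kinase (0.056, 0.057 and 0.060, beside a median of 0.50). Of these 6 genes 0 passed edgeR's test, beside 1.17% of all genes. They were picked for likeness to Cirbp and Rbm3, which did not pass, so this count adds nothing to that result.

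Of the kinases, Clk1 and Clk4 had nearly equal means in both types and Clk2 was lower in every cold-sensitive pool without passing the test. CLK2, like its relatives, phosphorylates SR proteins in the nucleus. Its gene had 25.6, 22.4 and 22.3 RPM in cold-sensitive replicates 1 to 3 (counts of 89, 73 and 150), against 35.8, 43.8 and 31.7 RPM in cold-insensitive replicates 1 to 3 (counts of 212, 257 and 162). No pool of either type lay within the other's range (p = 0.1 by exact permutation, the smallest possible), and the log2 ratio within replicates was -0.49, -0.97 and -0.51. As a log2 fold change this was -0.66 (standard error 0.51, 95% interval -1.71 to 0.38, adjusted p = 0.727 from edgeR), and it lay between -0.77 and -0.53 when single libraries were left out. Among all genes 8.18% were lower in every cold-sensitive pool than in any cold-insensitive pool, and 17.1% were lower within each replicate, so 1 such gene in 10 is close to the background. Either way, 2 of the 10 genes did not overlap between types and 2 moved one way in every replicate, against 16.0% and 33.4% of all genes.

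Clk1 RNA with retained introns is stored in the nucleus of mouse cells and spliced to mRNA on heat shock or loss of kinase activity. Its level was 158, 237 and 223 RPM in cold-sensitive replicates 1 to 3, against 196, 152 and 264 RPM in cold-insensitive replicates 1 to 3. The cold-sensitive values thus lay within the range of the cold-insensitive ones, with a log2 fold change of 0.02 (95% interval -0.52 to 0.55, adjusted p = 0.993 from edgeR). Clk4, its closest relative, had 133, 141 and 252 RPM in cold-sensitive replicates 1 to 3, against 155, 170 and 182 RPM in cold-insensitive replicates 1 to 3. Cold-sensitive replicate 3 was above every other pool and cold-sensitive replicates 1 and 2 were below every cold-insensitive pool. The log2 fold change of Clk4 was 0.06 (95% interval -0.50 to 0.61, adjusted p = 0.970 from edgeR) and stood at -0.30 without cold-sensitive replicate 3, the most deeply sequenced library. The ratio of Clk4 to Clk1 counts, also chosen after the values had been seen, was 0.840, 0.595 and 1.13 in cold-sensitive replicates 1 to 3, against 0.794, 1.12 and 0.689 in cold-insensitive replicates 1 to 3. Its means were 0.855 ± 0.268 in cold-sensitive and 0.866 ± 0.223 in cold-insensitive pools (SD, n = 3 pools of each type). The spread within each type was thus far wider than the difference between the types (two-sided exact permutation test, p = 1).

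**Figure D2:**
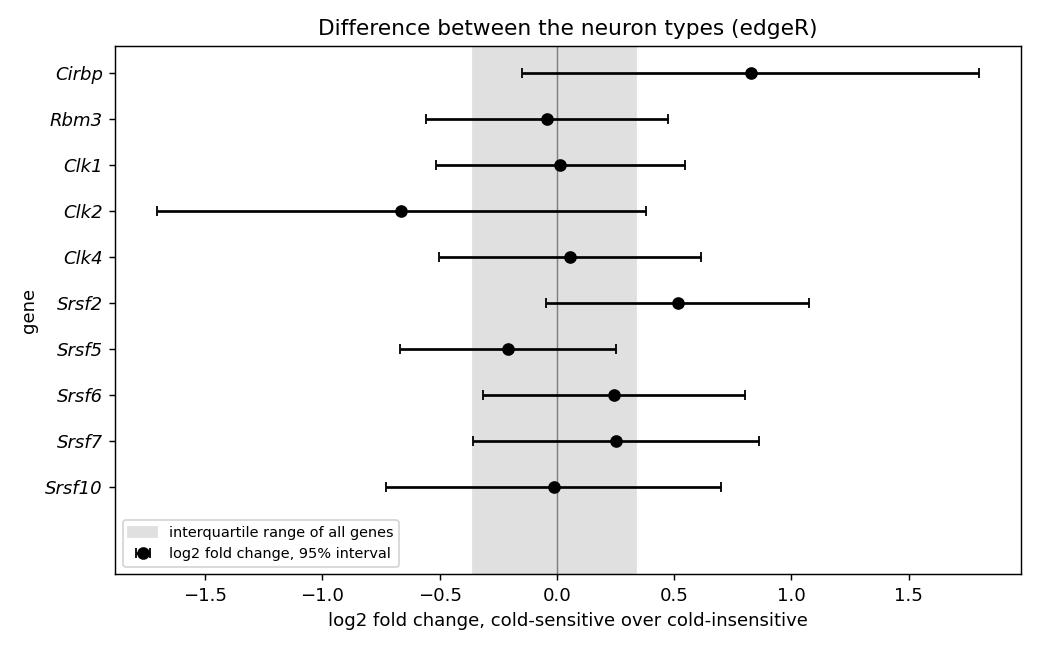
Log2 fold change of cold-sensitive over cold-insensitive neurons for each of the 10 genes, with the 95% interval from edgeR, and in grey the interquartile range of all genes tested. All 10 intervals include 0, and Cirbp, Clk2 and Srsf2 have the points that lie outside the grey band.

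Of the 5 SR factors, Srsf2 was higher in every cold-sensitive pool, and none passed the test. SRSF2 binds exonic enhancers and also acts in transcription elongation. Its level was 155, 126 and 175 RPM in cold-sensitive replicates 1 to 3, against 125, 92.7 and 102 RPM in cold-insensitive replicates 1 to 3. The types did not overlap, although the lowest cold-sensitive and the highest cold-insensitive pools were nearly level (two-sided exact permutation test, p = 0.1, the smallest possible). The log2 fold change was 0.52 (standard error 0.27, 95% interval -0.05 to 1.08, adjusted p = 0.525 from edgeR), which was the lowest adjusted p among the 10 genes, and the ratio was above 0 within each replicate (0.32, 0.45 and 0.78). Of all genes 7.84% were higher in every cold-sensitive pool and 16.3% were higher within each replicate, again close to 1 gene in 10. Exons of Srsf2 share 748 bases with those of Mettl23 and Mfsd11 on the opposite strand. The counting, at default settings, ignored strand and assigned no read that overlaps exons of another gene as well. Reads there would thus be missing from the Srsf2 counts, which would also lower its level per kilobase given below.

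SRSF5 binds exonic enhancers and promotes the inclusion of exons. Its gene had 218, 240 and 270 RPM in cold-sensitive replicates 1 to 3, against 324, 258 and 257 RPM in cold-insensitive replicates 1 to 3 (log2 fold change -0.21, 95% interval -0.67 to 0.25, adjusted p = 0.833 from edgeR). The types overlapped, and cold-insensitive replicate 1 was the highest pool. Srsf6, which encodes another exon-binding SR protein, had 172, 159 and 123 RPM in cold-sensitive replicates 1 to 3, against 149, 99.0 and 135 RPM in cold-insensitive replicates 1 to 3. Its log2 fold change was 0.24 (95% interval -0.32 to 0.80, adjusted p = 0.841 from edgeR). In this gene 2 of the 3 replicates had the higher value in cold-sensitive neurons.

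SRSF7 carries a zinc knuckle and acts in splicing, 3′ end formation and RNA export. Its gene had 88.8, 115 and 180 RPM in cold-sensitive replicates 1 to 3, against 97.8, 112 and 112 RPM in cold-insensitive replicates 1 to 3. The difference of means came from cold-sensitive replicate 3, the library that also stood out for Clk4. The log2 fold change was 0.25 (95% interval -0.36 to 0.86, adjusted p = 0.856 from edgeR), and without that library it was -0.08. SRSF10 differs from the other SR factors in that it acts as a splicing repressor once heat shock or mitosis removes its phosphates. Its gene had 87.3, 78.6 and 105 RPM in cold-sensitive replicates 1 to 3, against 147, 71.2 and 54.6 RPM in cold-insensitive replicates 1 to 3. Cold-insensitive pools spanned a wider range (91.1 ± 49.4 RPM) than cold-sensitive pools (90.3 ± 13.4 RPM, SD, n = 3 each), around nearly equal means. The log2 fold change was -0.01 (95% interval -0.73 to 0.70, adjusted p = 0.996 from edgeR), and it became 0.52 without cold-insensitive replicate 1.

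**Figure D3:**
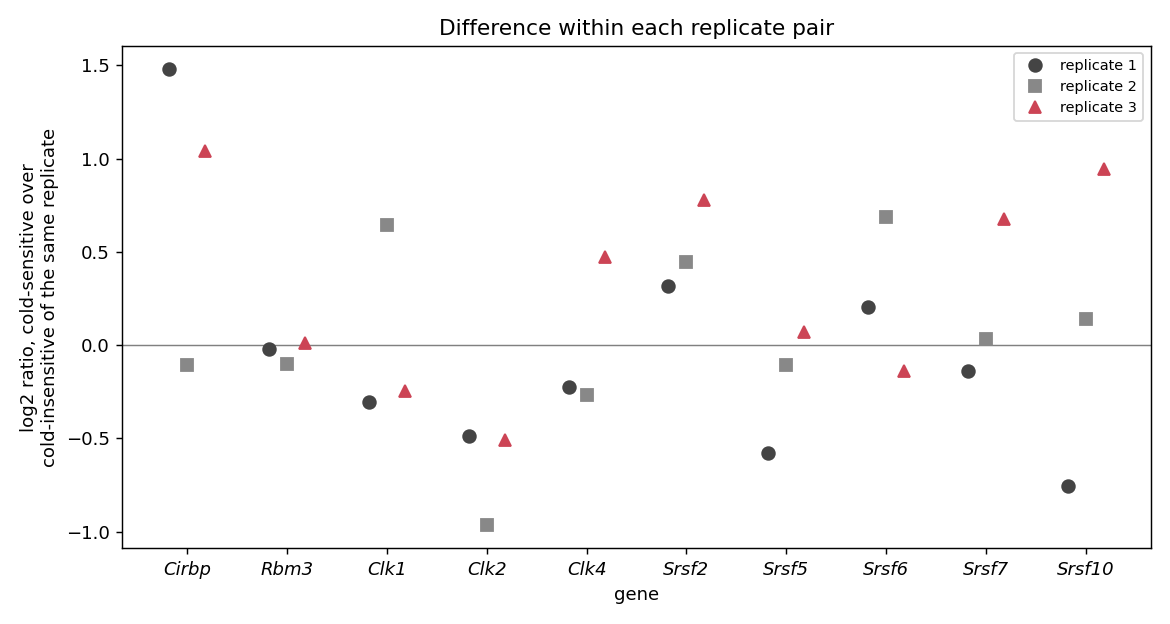
Log2 ratio of the normalized value in the cold-sensitive over the cold-insensitive pool of the same replicate, for each of the 10 genes and each of 3 replicates (marker shapes). All 3 ratios are above 0 for Srsf2 and below 0 for Clk2, and for the other 8 genes they fall on both sides of 0, with Rbm3 closest to it.

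The SR genes summed to 721, 719 and 853 RPM in cold-sensitive replicates 1 to 3, against 843, 633 and 661 RPM in cold-insensitive replicates 1 to 3 (two-sided exact permutation test, p = 0.5). The kinase genes summed to 317, 401 and 497 RPM in cold-sensitive replicates 1 to 3, against 387, 366 and 478 RPM in cold-insensitive replicates 1 to 3 (p = 1 in the same exact test). Neither sum separated the types. The spread of log2 values within a type, as an SD, had a median of 0.32 over the 10 genes and of 0.50 over all genes. It was widest for Srsf10 (0.54) and Cirbp (0.45). The median level was 134 RPM for the 10 genes and 45.4 RPM over all genes, which thus include many of larger counting error. The lowest count of any of the 10 genes in a library was 73, where counting alone gives a coefficient of variation of at least 11.7%, and it was 543 for Rbm3, which gives at least 4.29%.

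Per kilobase of annotated exon, with the exons of all forms of a gene joined, Srsf5 was highest at 65.5 ± 9.02 RPM per kilobase and Clk2 lowest at 5.71 ± 1.61 (SD over the 6 libraries of both types). Between them came, in falling order, Srsf2 (43.7 ± 10.6), Rbm3 (34.7 ± 3.62), Srsf7 (33.1 ± 9.02), Clk4 (29.7 ± 7.41), Srsf6 (29.0 ± 5.47), Clk1 (25.2 ± 5.48), Cirbp (14.9 ± 6.48) and Srsf10 (12.9 ± 4.63). Neighbours in this order that did not differ beyond the spread of their log2 difference over the libraries were Srsf2 and Rbm3, Rbm3 and Srsf7, Clk4 and Srsf6, Srsf6 and Clk1, and Cirbp and Srsf10. The order holds for this length only. Over the bases of protein-coding transcripts alone, a length tried after the data had been seen, Srsf5 stayed highest (158 ± 21.7 RPM per kilobase), but Clk1 came next (114 ± 24.8) and then Clk4 (78.6 ± 19.6), ahead of Srsf2 (64.6 ± 15.6) and Rbm3 (45.6 ± 4.76), and Cirbp, Srsf10 and Clk2 kept the last places. With all exons counted, Rbm3 stood above Cirbp in each type, at 34.3 ± 3.47 against 19.0 ± 6.64 RPM per kilobase in cold-sensitive neurons and 35.2 ± 4.48 against 10.7 ± 3.04 in cold-insensitive neurons (SD, n = 3 pools of each type).

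All of the genes but Srsf10 had annotated forms marked for nonsense-mediated decay and forms with a retained intron. Srsf10 had neither kind, though only 4 of its 10 annotated transcripts were classed as protein-coding. In the GENCODE M21 annotation of GRCm38, 9 of the 10 genes (90%) had a transcript marked for nonsense-mediated decay, the pathway that removes RNAs with early stop codons, against 30.4% of the 9500 genes of the table that were matched. Likewise 9 of the 10 had a transcript with a retained intron, against 62.6%, and 9 had both kinds, against 24.6%. The genes also had more annotated transcripts, with a median of 10.5 against 6 over the table, and the part of this in the shares above was not tested. The share of exon bases that lie in no protein-coding transcript had a median of 39.0% over the 10 genes and of 17.0% over the table. It was 16.6% in Srsf10, 77.9% in Clk1, 62.2% in Clk4, 58.5% in Srsf5, 56.8% in Clk2 and 45.7% in Cirbp. The deposited counts add all exons of a gene, so reads of a retained intron or a poison exon count as those of the mRNA do, and changes in splicing between the types could not be measured from these values. This also lowers the level per kilobase of genes whose extra forms are rare.

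The genes lie on 9 chromosomes of GRCm38. Cirbp (ENSMUSG00000045193.13) spans 80165985 to 80172786 on the forward strand of chromosome 10, and Rbm3 (ENSMUSG00000031167.16) spans 8138975 to 8145880 on the reverse strand of chromosome X. Clk2 (ENSMUSG00000068917.12) spans 89164795 to 89176921 on the forward strand of chromosome 3, and Srsf2 (ENSMUSG00000034120.18) spans 116849901 to 116853094 on the reverse strand of chromosome 11, which also carries Clk4. Of the 10 genes, Srsf2 alone shared exon sequence with another protein-coding gene of this annotation, against 17.5% of the table for genes of the opposite strand.

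Other genes of the same pathways were examined as lists. Of those on RNA processing 0 genes passed edgeR's test, beside 1.17% of all genes, a share at which few calls would be found in lists of this size. None passed in any of its 18 alternatives, DESeq2 and limma among them. At an unadjusted p under 0.05 edgeR found 1 hnRNP gene higher, 2 spliceosome genes lower and, of the neuronal splicing regulators, 2 higher and 2 lower, and 0 in the other lists on RNA processing, beside 10.7% of all genes. All 8 other SR and SR-like factors were in the table, and their log2 fold changes had a median of 0.10 and ranged from -0.34 to 0.65. The most abundant were Srsf11, at 356 ± 80.3 RPM in cold-sensitive and 452 ± 135 RPM in cold-insensitive neurons, and Srsf1, a constitutive splicing factor, at 254 ± 5.33 against 201 ± 45.2 RPM (SD, n = 3 pools of each type, adjusted p = 0.687 and 0.688 from edgeR). Of 6 other kinases of SR proteins 5 were in the table (median 0.18), with Srpk2 at 316 ± 66.4 against 365 ± 109 RPM and Dyrk1a at 340 ± 91.9 against 299 ± 57.0 RPM. Of 16 hnRNP and related RBM proteins, which often act against SR factors, 16 were in the table with a median of 0.10. Hnrnpk was at 810 ± 120 against 1022 ± 355 RPM and Hnrnpu at 597 ± 70.8 against 731 ± 71.2 RPM (cold-sensitive against cold-insensitive in each case). Proteins with a cold shock domain, a fold that CIRBP and RBM3 do not have, gave 5 of 8 genes in the table and a median of -0.06. Ybx1 was at 202 ± 32.4 RPM in cold-sensitive and 210 ± 15.0 RPM in cold-insensitive neurons.

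Of 22 genes of the core spliceosome 21 were in the table, with log2 fold changes of -1.23 to 0.61 around a median of -0.08. Its most abundant genes were Srrm2, at 1611 ± 171 RPM in cold-sensitive and 1709 ± 274 RPM in cold-insensitive neurons, and Sf3b1, a subunit that helps recognize the branch point, at 564 ± 124 against 608 ± 63.5 RPM. Of 19 splicing regulators of neurons 19 were in the table, at -0.83 to 0.73 around a median of -0.15. Celf4 was at 706 ± 76.8 RPM in cold-sensitive and 511 ± 138 RPM in cold-insensitive neurons (edgeR, adjusted p = 0.457), and Rbfox2 at 651 ± 73.2 against 619 ± 141 RPM. All 10 factors of nonsense-mediated decay were in the table, with a median of -0.01. Smg1, the kinase of that pathway, was at 404 ± 96.3 RPM in cold-sensitive and 417 ± 38.8 RPM in cold-insensitive neurons.

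**Figure D4:**
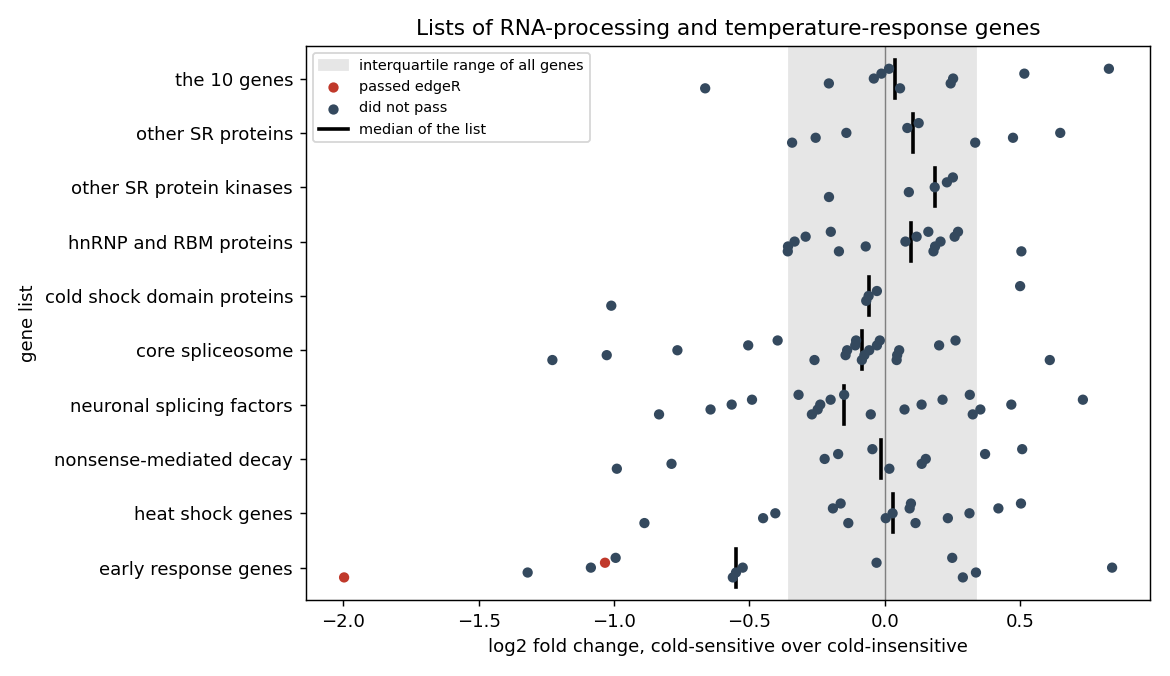
Log2 fold change of cold-sensitive over cold-insensitive neurons (horizontal axis) for each measured gene of the 10 genes and of 9 further lists, with the median of each list as a black bar, the interquartile range of all genes in grey, and red for genes that passed edgeR's test. The 2 red points are Nr4a1 and Fosb among the early response genes.

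Genes that others have tied to RBM3 or CIRBP were 3, all in the table, of which 0 passed. By an unadjusted p under 0.05, 1 was higher and 1 lower, beside 10.7% of all genes, and the same 2 did not overlap between the types, beside 16.0% of all genes. Rtn3, through which RBM3 acts on synapses in mice, had 600, 644 and 653 RPM in cold-sensitive replicates 1 to 3, against 531, 456 and 345 RPM in cold-insensitive replicates 1 to 3. Its values were higher in each cold-sensitive pool, and its log2 fold change was 0.51 (standard error 0.21, unadjusted p = 0.0255 and adjusted p = 0.350 from edgeR). Ntrk2, the receptor of BDNF that has been placed upstream of RBM3 in mice, had 272, 373 and 306 RPM in cold-sensitive replicates 1 to 3, against 442, 450 and 641 RPM in cold-insensitive replicates 1 to 3 (log2 fold change -0.69, adjusted p = 0.180 from edgeR). Its values were lower in each cold-sensitive pool. Clock had a log2 fold change of 0.27.

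Many heat shock genes answer to raised rather than lowered temperature. Of 16 genes listed under this name, not all of which need respond to heat, 15 were in the table. Of these 0 passed edgeR's test or an alternative to it, beside 1.17% of all genes in edgeR's test. By an unadjusted p under 0.05 from edgeR 1 was higher and 0 lower, beside 10.7% of all genes (median log2 fold change 0.03). Hsp90aa1 was at 3236 ± 904 RPM in cold-sensitive and 2754 ± 314 RPM in cold-insensitive neurons, and Hsp90ab1 at 2458 ± 455 against 2807 ± 454 RPM. Early response genes mark recent activity or stress of cells. Of 16 of them 13 were in the table, and by edgeR's test 2 fell and 0 rose, beside 1.17% of all genes called in either direction. Their median log2 fold change was -0.55 (4 passed with the replicate number as a block). Nr4a1 was at 17.1 ± 3.34 RPM in cold-sensitive and 68.7 ± 4.04 RPM in cold-insensitive neurons (edgeR: log2 fold change -1.997, adjusted p = 0.0271). Fosb was at 219 ± 68.1 RPM in cold-sensitive and 448 ± 51.8 RPM in cold-insensitive neurons, with a log2 fold change of -1.03 and an adjusted p of 0.0341 from edgeR. With any library but cold-sensitive replicate 1 left out neither passed (adjusted p of 0.0501 to 0.200 for Fosb and of 0.0565 to 0.133 for Nr4a1), while over all 6 such fits, each on fewer samples, the log2 fold change lay between -1.29 and -0.83 for Fosb and between -2.13 and -1.85 for Nr4a1. Jun was at 478 ± 90.7 against 705 ± 81.7 RPM and Egr1 at 749 ± 183 against 418 ± 86.0 RPM, neither past the test (cold-sensitive against cold-insensitive, adjusted p = 0.286 and 0.0700 from edgeR). Egr1 passed with the replicate number as a block (edgeR, adjusted p = 0.0174) and with DESeq2 (0.0233). The part of this difference in activity genes in the values of the 10 genes was not tested. Among the general neuronal markers Map2 was at 3806 ± 747 against 3469 ± 1033 RPM and Snap25 at 1882 ± 476 against 1211 ± 230 RPM (cold-sensitive against cold-insensitive, adjusted p = 0.914 and 0.235 from edgeR). Nefm and Nefl, neurofilament genes of the same list that were picked out after their values had been seen, lay the other way at 436 against 873 RPM and 303 against 607 RPM (means, cold-sensitive against cold-insensitive, edgeR adjusted p = 0.0604 and 0.141).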

How the data were processed

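RNA of 3 cold-sensitive and 3 cold-insensitive pools of mouse POA neurons was sequenced as ribosome-depleted stranded total RNA in read pairs. The authors used Trimmomatic 0.36 for trimming, STAR 2.5.4b for alignment (GRCm38) and featureCounts of Subread 1.6.2, at default settings, for read counts over the exons of protein-coding genes. Those settings ignore strand, count both mates of a pair and leave out reads that overlap exons of several genes. Raw counts and normalized signal (RPM, reads scaled by the authors to the effective library size) were deposited in a single table whose lowest normalized value is 1.01. Further deposited columns hold the authors' fold change (a ratio) and p-value from their own test (edgeR 3.22.3). None of these was used.

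Counts were tested in R 4.3.3 with edgeR 4.0.16 (TMM scaling, quasi-likelihood F-test in its legacy form, neuron type as the only term, adjustment over 9583 genes, with a call at adjusted p ≤ 0.05). Intervals rest on the standard error, the log2 fold change divided by the square root of F, and its degrees of freedom. The common biological coefficient of variation was 42.2%. The fit was tested on simulated data. Values per library are the deposited normalized signal. Exact permutation tests are two-sided, and 0.1 is the smallest p they can give. By the methods both types of a biological replicate came from the same isolations, and the replicate numbers of the labels were taken to mark them. Deviations of same-numbered libraries correlated at only 0.043 to 0.054 across genes, so the pairing rests on that reading. The main test and the permutation tests leave it out. Exon lengths, transcript classes and overlaps came from GENCODE M21, of the authors' build but a later release.

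The members and lists were chosen with earlier results of these data known. Named genes are the 10 members, the called genes and the 2 most abundant of each list, and the 3 genes nearest to Cirbp and to Rbm3. Some genes that this rule names are not reported here. Others are marked as chosen after their values were seen, apart from Clock and C1ql1, each the remaining measured gene of its list. Alternatives covered scaling, low-count filters, DESeq2 1.42.0, limma 3.58.1, other edgeR fits, the replicate block and single libraries left out.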

Additional observations from a re-analysis of the deposited data

How the results depend on the processing

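Under each of 18 alternatives 0 of the 10 genes passed the test, and their lowest adjusted p in any of them was 0.404, from DESeq2. At an unadjusted p under 0.05 Srsf2 alone of the 10 was found, without cold-sensitive replicate 2 or cold-insensitive replicate 1. The log2 fold changes of Cirbp, Srsf2 and Srsf6 (above 0) and of Clk2 and Srsf5 (below 0) had the same sign in every alternative. Of all genes, 32 were called higher and 80 lower. DESeq2 called 79 and 152, the edgeR likelihood ratio test 55 and 124, and the newer edgeR quasi-likelihood fit, chosen after seeing the data, 54 and 123. With single libraries left out 8 to 29 were called higher (8 without cold-sensitive replicate 2) and 20 to 63 lower (20 without cold-insensitive replicate 2). With the replicate as a block edgeR called 40 and 114 and again 0 of the 10 genes, Egr1 passed (adjusted p = 0.0174), and the log2 fold changes of Clk4 (-0.0061), Srsf10 (0.11) and Aldoc (-0.0028) changed sign.

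Other log2 fold changes changed sign elsewhere, none of them past the test. On library size alone Clk1 was at -0.0049 and Aldoc at -0.022. With limma at pseudocounts of 1 and 0.5 Clk4 was at -0.0065 and -0.0067, Srsf10 at 0.107 and 0.109, and Aldoc at -0.0025 and -0.0027. In the newer edgeR fit Srsf10 was at 0.00081. With single libraries left out the log2 fold change ranged from -0.14 to 0.039 for Rbm3, -0.16 to 0.24 for Clk1, -0.30 to 0.22 for Clk4, -0.081 to 0.45 for Srsf7, -0.28 to 0.52 for Srsf10, -0.39 to 0.042 for Srpk2, -0.19 to 0.043 for Ybx1, -0.25 to 0.053 for Sf3b1, -0.093 to 0.23 for Rbfox2, -0.18 to 0.13 for Smg1, -0.012 to 0.39 for Hsp90aa1, -0.057 to 0.37 for Map2, -1.08 to 0.15 for Slc1a2 and -0.18 to 0.15 for Aldoc. The cause of these changes was not tested.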
